A study of Rattus norvegicus with 5 samples.

Results

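The genes of oxidative phosphorylation were examined as a group in rat hippocampus, from samples labelled P5. A probe set, the group of short probes that reads out a transcript on the array, was included when its single gene symbol in the platform annotation began with Ndufa, Ndufb, Ndufc, Ndufs, Ndufv, Sdh, Uqcr, Cox4, Cox5, Cox6, Cox7, Cox8 or Atp5, or was Cycs or Cyc1. This rule found 102 probe sets of 56 genes, out of 4736 genes that had a probe set with no other symbol. The array holds 8799 probe sets. By complex there were 27 genes of complex I, 2 of complex II, 4 of complex III, 13 of complex IV and 10 of complex V. Cycs, which encodes cytochrome c, had no probe set with a single symbol. The study holds 5 total RNA samples, each on 1 array: 2 of the control diet (labelled Control), 2 exposed to alcohol as fetuses (FAE) and 1 of an isocaloric diet. The labels used here give no strain and no dose or timing of the alcohol, and they do not say whether a sample was 1 animal or a pool. Every p-value therefore measures only the spread between these samples, which may be technical.

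Oxidative phosphorylation takes place in the inner membrane of mitochondria. Complex I (NADH dehydrogenase) and complex II (succinate dehydrogenase) pass electrons to ubiquinone, complex III passes them to cytochrome c and complex IV (cytochrome c oxidase) to oxygen, and complex V (ATP synthase) uses the resulting proton gradient to make ATP. Most subunits are encoded in the nucleus, and a small set, including the catalytic core of complex IV, in the mitochondrial genome. Neurons rely heavily on this pathway for ATP.

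The symbols gather more than structural subunits. Ndufaf3 and Sdhaf2 encode assembly factors of complexes I and II, Atp5if1 encodes the inhibitor that keeps ATP synthase from running in reverse, and Cox6c-ps1 is a pseudogene. Ndufa4 carries a complex I name, as does its relative Ndufa4l2, and the Ndufa4 protein is now placed in complex IV. All are counted here under the complex of their symbol.

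The promoter sequences of the members were searched for 3 short motifs. RefSeq windows of 250 bases before to 50 after the start of a gene (build GRCr8) were found for 47 of the 56 genes. Searched on both strands, the letters AAGATGGC, the core of a YY1 site, stood in the windows of 11 of these genes (23.4%), against 3.67% of the 21851 windows of protein-coding genes. Of those 11 genes, 8 carry complex I names. Of the 56 members 27 do, but that count includes genes without a window, so the shares have unlike bases. The letters CCGGAAG, the core of sites for ETS factors, stood in 10 windows (21.3%, against 10.7%), and GCGCATGC, the core of an NRF1 site, in 2 (4.26%, against 3.11%). At least 1 of the 3 motifs was present in 38.3% of the members' windows and in 16.1% of all. A match of letters is a description of the sequence, not a binding site. The windows of 3 members with large differences between groups follow, with matches in capitals. Atp5po (chr11:44657434-44657733, minus strand) holds overlapping matches to the NRF1 core and its reverse complement and a match to the YY1 core. Cox8a (chr1:213833574-213833873, minus strand) holds 2 ETS cores and a YY1 core, and Atp5if1 (chr5:150026628-150026927, minus strand) holds none of the 3.
Atp5po: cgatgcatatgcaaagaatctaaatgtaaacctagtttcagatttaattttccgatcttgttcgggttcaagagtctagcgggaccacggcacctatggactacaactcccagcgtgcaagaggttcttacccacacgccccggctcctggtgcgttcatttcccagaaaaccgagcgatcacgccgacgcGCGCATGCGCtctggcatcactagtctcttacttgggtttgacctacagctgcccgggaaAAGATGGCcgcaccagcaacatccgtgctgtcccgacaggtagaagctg
Cox8a: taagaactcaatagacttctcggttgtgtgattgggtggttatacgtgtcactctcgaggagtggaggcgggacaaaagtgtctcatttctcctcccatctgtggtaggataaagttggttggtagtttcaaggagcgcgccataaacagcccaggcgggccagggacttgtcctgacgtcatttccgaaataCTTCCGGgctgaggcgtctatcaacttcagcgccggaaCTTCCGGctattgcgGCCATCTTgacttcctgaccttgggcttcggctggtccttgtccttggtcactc
Atp5if1: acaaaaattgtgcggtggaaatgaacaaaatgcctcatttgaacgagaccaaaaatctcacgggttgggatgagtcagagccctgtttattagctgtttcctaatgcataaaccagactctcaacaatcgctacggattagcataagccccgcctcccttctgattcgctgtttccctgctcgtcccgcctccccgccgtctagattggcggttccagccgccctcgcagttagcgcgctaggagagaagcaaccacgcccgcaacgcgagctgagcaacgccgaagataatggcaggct

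The arrays differed in ways that stand beside every comparison below. The trimmed mean intensity lay between 150.19 and 150.22 on all 5. The beta-actin 3'/5' ratio, a sign of RNA and labelling quality, was 1.32 and 1.34 with control diet, 1.18 and 1.26 with fetal alcohol and 1.12 with the isocaloric diet. Of 12 listed choroid plexus markers 8 are on the array, and their summed intensity was 7907 and 7984 with control diet, 2905 and 1142 with fetal alcohol and 8085 with the isocaloric diet. Ttr, the plexus transthyretin, made up most of that sum with control diet and with the isocaloric diet, and was at 1276 and 19.3 with fetal alcohol. Prlr and Kl, at 17.6 to 44.9, were low on every array. The 12 of 20 hippocampal and neuronal markers on the array summed to 5591 and 5059 with control diet, 4758 and 5998 with fetal alcohol and 4847 with the isocaloric diet, with overlapping groups, and Slc17a7, the vesicular glutamate transporter, was near the bottom of the scale at 3.15 to 5.72. Within that list the genes differed. The neuronal factors Neurod1 and Neurod2 were highest with control diet. Neurod1 was at 241 and 251 with control diet, 109 and 221 with fetal alcohol and 126 with the isocaloric diet. Neurod2 was at 185 and 150 with control diet, 83.8 and 110 with fetal alcohol and 88.0 with the isocaloric diet. Nefl went the other way with fetal alcohol, at 750 and 479 with control diet, 855 and 783 with fetal alcohol and 462 with the isocaloric diet. For Gap43, Snap25, Syt1, Map2 and Gad1 the control diet and fetal alcohol values overlapped. Meninges and vessel markers (11 of 12 on the array) summed to 2129 and 2867 with control diet, 2056 and 1246 with fetal alcohol and 1689 with the isocaloric diet. Microglia and leukocyte markers (7 of 10) summed to 490 and 702 with control diet, 467 and 409 with fetal alcohol and 435 with the isocaloric diet. Both sums were highest on the control diet arrays. Heart and skeletal muscle markers (8 of 10) stand for tissue with its own complex IV isoforms. They summed to 499 and 524 with control diet, 396 and 471 with fetal alcohol and 508 with the isocaloric diet, lowest on the fetal alcohol arrays. The part of any of these in the differences was not tested. In tissue samples, fewer cells of a type and less RNA per cell cannot be told apart.

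Signal was sufficient to test nearly every member. At the brightest probe set of each gene, the lowest, median and highest intensity of the tested genes were 33.4, 521 and 3218 on the first control diet array and 35.9, 625 and 2449 on the second fetal alcohol array. A filter on dim signal (a mean log2 value above the 40th percentile of all probe sets) was passed by 55 of the 56 genes and 93 of the 102 probe sets. The exception among genes was the pseudogene Cox6c-ps1, at 11.1 and 21.5 with control diet, 23.8 and 29.0 with fetal alcohol and 30.4 with the isocaloric diet. Differences below are differences of log2(intensity + 10.6), with standard errors from a fit over all probe sets. Between the fetal alcohol arrays the SD of the log2 differences was 0.355 over the members and 0.495 over the 3174 named genes tested. Between the control diet arrays it was 0.355 and 0.334.

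**Figure D1:**
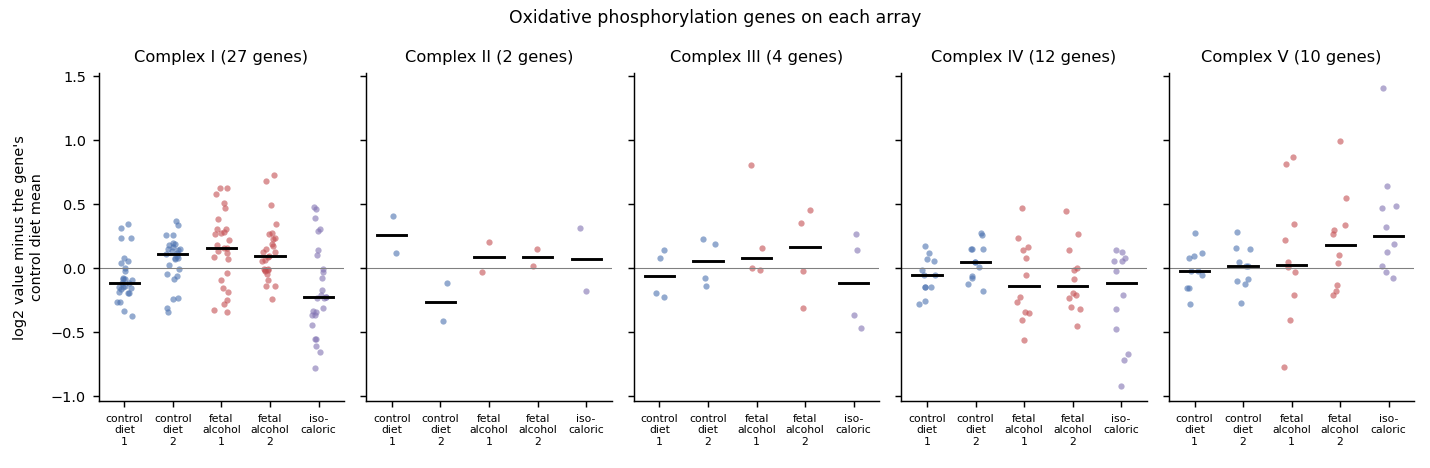
Log2 value of each gene minus its mean with control diet (vertical axis) on each of the 5 arrays, for the 27, 2, 4, 12 and 10 tested genes of complexes I to V. Each point is a gene at its brightest probe set and the black bar is the median. With the isocaloric diet the medians of complexes I and V lie on opposite sides of 0, at -0.22 and 0.26.

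The first comparison, fetal alcohol against control diet, addresses the exposure named in the study's title. Over the whole pathway the difference was close to 0: the median log2 difference of the 55 tested genes was 0.03, with 32 positive and 23 negative, beside a median of 0.01 and 52.4% positive among all named genes. At the brightest probe sets, single genes ran from -0.43 (Cox6c) to 0.93 (Atp5if1), and only Atp5if1 was past 1.5-fold. Of the 3174 named genes tested, 45 were higher and 127 lower by more than that. The second probe sets of Uqcr11 (1.72-fold) and Atp5po (1.64-fold) were also past 1.5-fold. No member probe set passed a limma adjusted p of 0.05, and neither did any of the 5244 probe sets tested (0%). At an unadjusted limma p under 0.05 there were 3 member genes (5.45%, background 4.76%). Both fetal alcohol arrays lay above both control diet arrays for 14 of 55 genes (25.5%, background 17.6%) and below both for 5 (9.09%, background 16.8%). The median moved with single arrays, being 0.156 without the second control diet array and 0.00757 without the first.

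Complex I genes were mostly higher with fetal alcohol, by small amounts that depended on the control diet arrays. Of 27 genes 19 had a positive difference (70.4%, beside 52.4% of all named genes). The median was 0.11 (0.03 without the first control diet array and 0.22 without the second). Of the 27, 7 had both fetal alcohol arrays above both of the control diet and 1 had both below, beside 17.6% and 16.8% of all named genes. Ndufv2, an iron-sulfur subunit of the NADH-oxidising arm, measured 522 and 320 with control diet, 638 and 579 with fetal alcohol and 408 with the isocaloric diet. Its fetal alcohol and control values did not overlap, and its log2 difference was the highest of the complex, 0.56 ± 0.28 (limma adjusted p = 0.911). Ndufa4 (0.50), Ndufb3 (0.42) and Ndufc2 (0.41) came next. Ndufb3, an accessory subunit of the membrane arm, measured 131 and 174 with control diet, 170 and 249 with fetal alcohol and 127 with the isocaloric diet, with overlapping groups. The assembly factor Ndufaf3 had the lowest difference, -0.16 ± 0.23, from 297 and 296 with control diet, 243 and 286 with fetal alcohol and 319 with the isocaloric diet. At this probe set, its brightest, both fetal alcohol values were below the others. The other Ndufaf3 probe sets went the other way, with 0.21 and 0.19. At the one with 0.21 both fetal alcohol arrays lay above both control diet arrays.

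Among the other complex I genes, Ndufb1 (0.35), Ndufb5 (0.29), Ndufs6 (0.28), Ndufa8 (0.26), Ndufv3 (0.25), Ndufa9 (0.23) and Ndufa3 (0.23) were on the positive side. Ndufb8 (0.17), Ndufb2 (0.12), Ndufb6 (0.11), Ndufab1 (0.09), Ndufs8 (0.05), Ndufb11 (0.02), Ndufa4l2 (0.01) and Ndufs4 (0.01) were positive by less. Below 0 were Ndufc1 (-0.005), Ndufs1 (-0.03), Ndufb10 (-0.03), Ndufs7 (-0.03), Ndufb9 (-0.05), Ndufa5 (-0.06) and Ndufa6 (-0.11). None of these had an unadjusted limma p under 0.05 in this comparison.

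Complexes II and III were covered by few genes. Sdha, the flavoprotein of succinate dehydrogenase, measured 393 and 333 with control diet, 419 and 404 with fetal alcohol and 453 with the isocaloric diet. Its groups did not overlap, with a log2 difference of 0.18 ± 0.23. Sdhaf2, which helps attach the flavin to Sdha, measured 295 and 163 with control diet, 214 and 222 with fetal alcohol and 193 with the isocaloric diet and did not separate (-0.01 ± 0.30). In complex III the small subunit Uqcr11 measured 802 and 1051 with control diet, 1612 and 1175 with fetal alcohol and 1108 with the isocaloric diet, so both fetal alcohol arrays were highest. The log2 difference of Uqcr11 was 0.58 ± 0.25 (limma adjusted p = 0.875), and its second probe set, at 275 and 492 against 615 and 670, gave 0.79. The difference at the brightest probe set was 0.35 without the first fetal alcohol array and 0.39 without the first control diet array. Cyc1, the cytochrome c1 that hands electrons to cytochrome c, measured 785 and 1078 with control diet, 1031 and 906 with fetal alcohol and 665 with the isocaloric diet, with overlapping groups (0.07 ± 0.24). Uqcrfs1, the Rieske iron-sulfur protein, measured 1635 and 1467 with control diet, 1550 and 1246 with fetal alcohol and 1200 with the isocaloric diet and overlapped too (-0.16 ± 0.21). The core protein Uqcrc2 had 0.22.

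Complex IV had the opposite balance of signs, with 9 of 12 tested genes lower with fetal alcohol. The share with a positive difference was 25%, beside 52.4% of all named genes. The median of the complex was -0.14, or -0.03 without the second control diet array. Cox6c measured 96.2 and 79.7 with control diet, 63.6 and 61.4 with fetal alcohol and 68.2 with the isocaloric diet, a log2 difference of -0.43 ± 0.23 (limma adjusted p = 0.92). Cox7a2l, a factor in joining complexes III and IV into supercomplexes, measured 605 and 745 with control diet, 452 and 569 with fetal alcohol and 418 with the isocaloric diet (-0.40 ± 0.24). Without the first fetal alcohol array this was -0.23, and without the second control diet array -0.25. Cox8a, a small subunit, measured 3218 and 2902 with control diet, 2620 and 2449 with fetal alcohol and 1611 with the isocaloric diet (-0.27 ± 0.18). In these 3 genes, of the 12, both fetal alcohol arrays lay below both control diet arrays, and in 2 they lay above. The shares among all named genes were 16.8% and 17.6%. This held at the brightest probe set. The groups overlapped at the other Cox6c probe set, at 53.4 and 58.8 with control diet and 31.1 and 70.4 with fetal alcohol. They also overlapped at the other Cox7a2l probe set and at some of those of Cox8a. Cox5b, a zinc-binding subunit, lay higher, at 1060 and 1076 with control diet, 1481 and 1291 with fetal alcohol and 1114 with the isocaloric diet, without overlap (0.37 ± 0.20, limma adjusted p = 0.922). Cox7b (0.34) and Cox6b1 (0.14) were the other positive genes. Cox4i1 (-0.11), Cox6a1 (-0.02) and Cox5a (-0.03) differed by little. Cox8b (-0.27) and Cox6a2 (-0.17), isoforms known from heart and muscle, and Cox4i2 (-0.17), known from lung, were lower with overlapping groups.

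The ATP synthase genes held the widest difference of the pathway, although their median was 0.03, with 6 of 10 positive. That median was 0.19 without the first fetal alcohol array, 0.11 without the first control diet array and 0.05 without the second. Atp5if1, the inhibitor, measured 257 and 384 with control diet, 584 and 639 with fetal alcohol and 852 with the isocaloric diet. Both control diet arrays lay below all others. Its log2 difference of fetal alcohol from control diet was 0.93 ± 0.26, a ratio of 1.91 on this scale, with an unadjusted limma p of 0.0067 and an adjusted p of 0.582. Without the first control diet array the difference was 0.65, and without the second 1.21. The other 3 probe sets of Atp5if1 gave 0.70, 0.64 and 0.24. Those with 0.64 and 0.24 were dim, at 20.6 to 69.7 and 21.0 to 50.6 over the 5 arrays. At the one with 0.24 the groups overlapped. Atp5po, a stalk subunit that ties the catalytic head to the membrane part, measured 956 and 1028 with control diet, 1749 and 1257 with fetal alcohol and 1556 with the isocaloric diet. Its groups did not overlap, the log2 difference was 0.58 ± 0.23 (limma adjusted p = 0.82) and the second probe set gave 0.71. Without the first fetal alcohol array the difference of Atp5po was 0.34.

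The rest of the ATP synthase lay closer to the control diet values. Atp5f1a, the alpha subunit of the catalytic head, measured 803 and 826 against 820 and 839 (0.03 ± 0.21). Atp5f1c, the gamma subunit of the rotor, measured 872 and 776 against 961 and 1014 (0.26 ± 0.21). Atp5pd, a stalk subunit, had the lowest difference of the complex, -0.27 ± 0.23, from 897 and 784 with control diet, 630 and 764 with fetal alcohol and 823 with the isocaloric diet. The groups overlapped for Atp5f1a and not for the other 2. The beta subunit Atp5f1b had -0.08, Atp5f1e 0.22, Atp5pf 0.03 and Atp5f1d -0.10. Atp5pb (-0.11) had its fetal alcohol values on either side of the control diet ones, at 282 and 718 around 592 and 402.

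**Figure D2:**
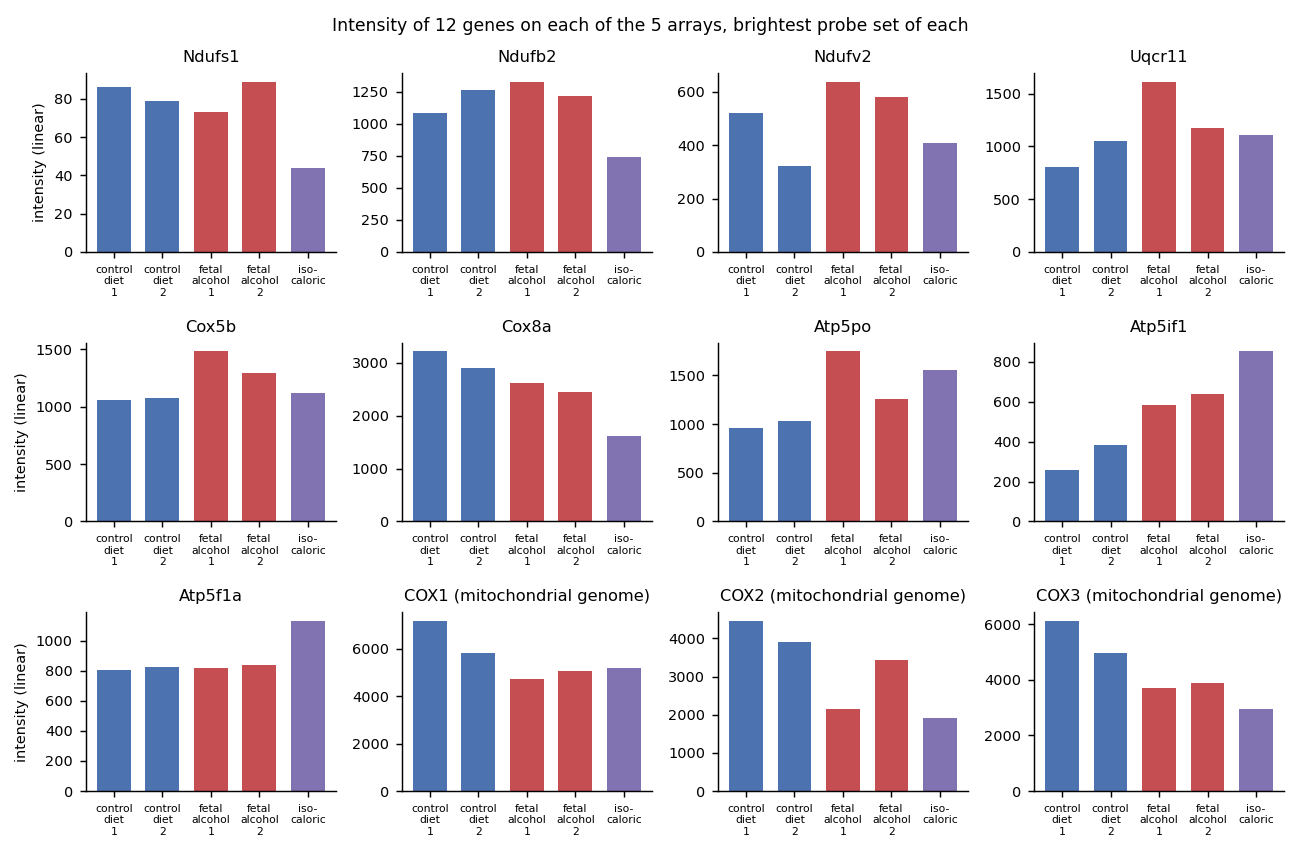
Intensity on a linear scale (vertical axes from 0) on each of the 5 arrays for 9 members and 3 mitochondrially encoded genes, at the brightest probe set of each. Bars are single arrays, coloured by group. Atp5if1 runs from 257 on the first control diet array to 852 with the isocaloric diet, and Cox8a from 3218 to 1611.

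The isocaloric diet, in general a control for calorie intake in alcohol feeding, is represented by 1 array, so its differences have no replicate check and its spread is assumed to be that of the other groups. Against control diet, complex I genes had a median log2 difference of -0.22, with 20 of 27 negative, and complex V genes a median of 0.26, with 8 of 10 positive. Between the control diet arrays, the first minus the second had a median of -0.23 for complex I, -0.10 for complex IV and -0.04 for complex V. For all named genes that median was 0.01. The isocaloric minus control diet medians were -0.11 for complex IV (-0.03 without the second control diet array) and -0.11 for complex III. Over all 55 genes the median isocaloric difference was -0.07, with 23 positive, beside 0.03 for all named genes. It was -0.02 without the second control diet array and -0.11 without the first. The isocaloric array lay below both control diet arrays for 23 members (41.8%, background 35%) and above both for 15 (27.3%, background 40.5%). It was below both for 15 of 27 complex I genes and 6 of 12 complex IV genes, and for 0 of 10 complex V genes. No member probe set passed the adjusted threshold of limma (0% of all did), and 6 member genes had an unadjusted limma p under 0.05 (10.9%, background 5.83%). A difference between complexes was not tested.

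Among the genes lower with the isocaloric diet were members of complexes I and IV. Cox8a had the lowest difference from control diet, -0.92 ± 0.22 (limma adjusted p = 0.449), and its other 3 probe sets gave -0.82, -0.38 and -0.26. Ndufs1, the large iron-sulfur subunit of complex I, measured 86.0 and 78.7 with control diet, 72.9 and 88.9 with fetal alcohol and 43.7 with the isocaloric diet (-0.77 ± 0.28 for isocaloric minus control diet). Ndufb2, an accessory subunit, measured 1079 and 1265 with control diet, 1326 and 1219 with fetal alcohol and 738 with the isocaloric diet (-0.66 ± 0.26). Cox6a2 measured 125 and 156 with control diet, 115 and 131 with fetal alcohol and 80.7 with the isocaloric diet (-0.72 ± 0.29). In Ndufs1, Ndufb2 and Cox6a2 the isocaloric array was below each of the other 4, whose groups overlapped. Further low differences were Cox7a2l (-0.67), Ndufb9 (-0.60), Ndufs4 (-0.55), Ndufa4l2 (-0.55) and Cyc1 (-0.46).

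The 2 members at the top of the isocaloric comparison were both of complex V. Atp5if1 had a log2 difference of isocaloric from control diet of 1.41 ± 0.32 (limma adjusted p = 0.449), and its other 3 probe sets gave 1.22, 0.87 and 0.64. Atp5po had 0.65 ± 0.28, and 1.04 at its second probe set. Atp5f1c, at 1155 with the isocaloric diet, had 0.48 ± 0.26, and Atp5f1a, at 1131, had 0.47 ± 0.25. Both of these were above each of the other 4 arrays. Of complex I, Ndufc2 (0.48), Ndufs6 (0.46), Ndufa4 (0.39) and Ndufs7 (0.30) were positive. Ndufs7, an iron-sulfur subunit, measured 270 and 461 with control diet, 373 and 320 with fetal alcohol and 438 with the isocaloric diet, with the isocaloric value inside the control diet range.

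Fetal alcohol against the isocaloric diet is the comparison of the exposed samples with the feeding control. Its values share the isocaloric array with the preceding comparison and the fetal alcohol arrays with the first, so the 3 are not independent. The median log2 difference of fetal alcohol from isocaloric was 0.42 for complex I (22 of 27 positive), 0.26 for complex III (4 of 4), 0.18 for complex IV (9 of 12) and -0.19 for complex V (0 of 10), beside -0.01 for all named genes. Without the second fetal alcohol array these were 0.45 for complex III, 0.12 for complex IV and -0.32 for complex V. Over the 55 members the median was 0.20. Both fetal alcohol arrays lay above the isocaloric array for 32 members (58.2%, background 30.4%) and below it for 12 (21.8%, background 29.5%). In complex I they lay above it for 20 of 27 genes and below it for 4. In complex V they lay below it for 4 of 10 genes, and for the other 6 the isocaloric value was between them. No member probe set passed the adjusted threshold of limma (0% of all did), and 3 genes had an unadjusted limma p under 0.05 (5.45%, background 3.97%). These were Ndufb2 with 0.78 ± 0.26, Ndufs1 with 0.75 ± 0.28 and Cox8a with 0.65 ± 0.22, each at a limma adjusted p of 0.998. Ndufb3 had 0.65 ± 0.33, or 0.39 without the second fetal alcohol array. At the other end were Atp5if1 with -0.47 ± 0.32, Atp5f1a with -0.44 ± 0.25 and Ndufs7 with -0.34 ± 0.36.

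**Figure D3:**
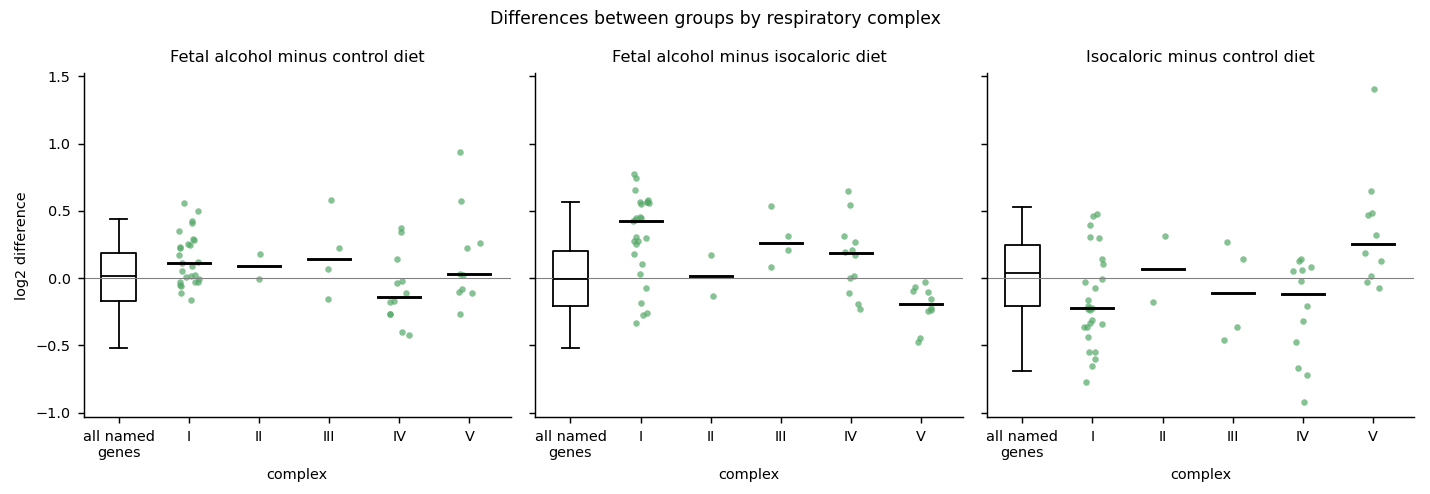
Log2 differences between groups (vertical axis) for the tested genes of complexes I to V, each point a gene and each black bar a median, beside all 3174 named genes (box from quartile to quartile, whiskers at the 5th and the 95th percentile). In the middle panel 22 of 27 complex I genes lie above 0 and 10 of 10 complex V genes below it. Both fetal alcohol arrays were below the isocaloric array for only 4 of these 10.

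Several probe sets of a gene gave a check within each array. Of the 25 genes with 2 or more tested probe sets, the sign of the fetal alcohol difference was shared in 13 and not in 12. The 12 were Ndufa4l2, Ndufab1, Ndufaf3, Ndufb5, Ndufs4, Uqcrfs1, Cox4i1, Cox6a1, Cox7a2l, Cox8a, Atp5f1d and Atp5pf. The brightest Cox7a2l probe set gave -0.40 and the other 0.03, and those of Cox8a ran from -0.28 to 0.13, so for these genes the sign depended on the probe set. For fetal alcohol minus isocaloric the sign was shared in 16 and not in 9, so the counts by complex depend on the probe set chosen. In that comparison the Uqcrfs1 probe sets ran from -0.41 to 0.21 and those of Cox4i1 from -0.19 to 0.77. For isocaloric minus control diet the sign was shared in 19 of the 25. Among the exceptions, the 3 Cox4i1 probe sets gave 0.08, -0.10 and -0.77, and those of Uqcrfs1 -0.37, -0.37 and 0.54. The 5 Ndufa4l2 probe sets were all lower with the isocaloric diet, from -0.96 to -0.55.

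**Figure D4:**
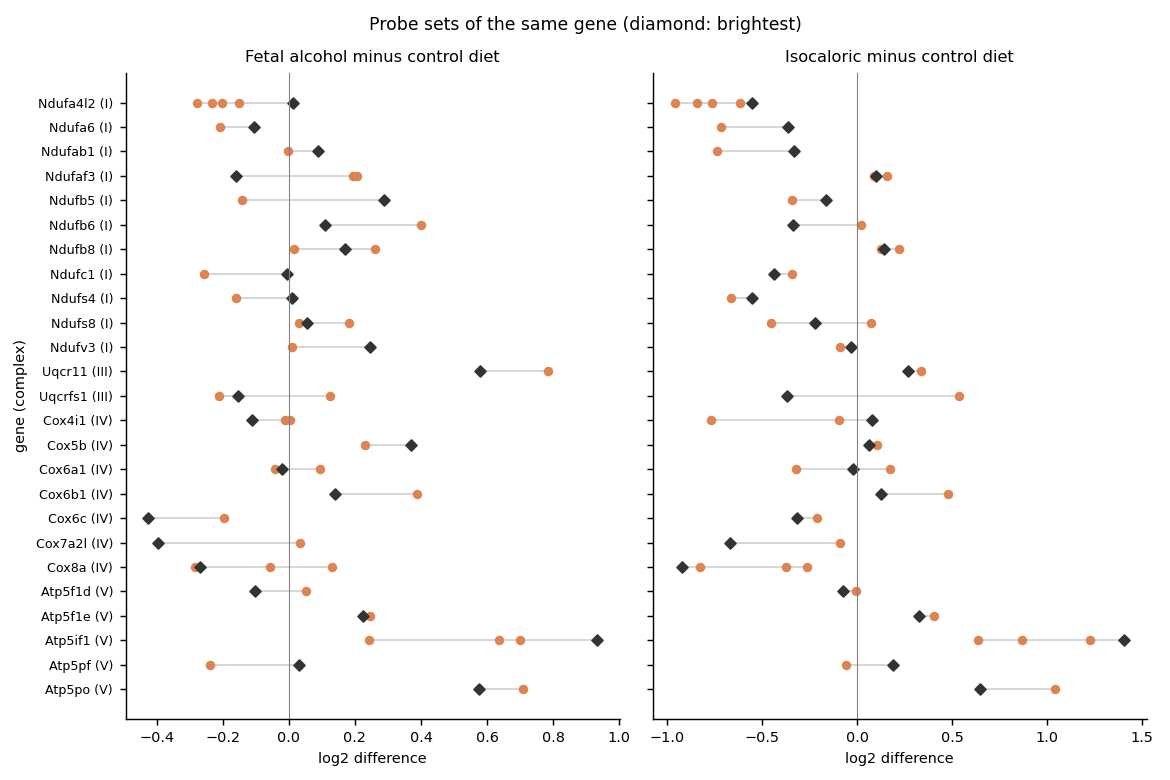
Log2 difference from control diet of each tested probe set (horizontal axis) for the 25 members with 2 or more, for fetal alcohol (left) and the isocaloric diet (right). Diamonds are the brightest probe set of a gene and circles the others. The Atp5if1, Atp5po and Uqcr11 probe sets all lie to the right of 0 in both panels.

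The mitochondrially encoded subunits of complex IV, which the symbol rule leaves out, had their highest signal with control diet. COX3 measured 6119 and 4948 with control diet, 3699 and 3876 with fetal alcohol and 2953 with the isocaloric diet. COX2 measured 4462 and 3917 with control diet, 2155 and 3433 with fetal alcohol and 1905 with the isocaloric diet. COX1 measured 7168 and 5810 with control diet, 4728 and 5074 with fetal alcohol and 5162 with the isocaloric diet. In all 3 genes the fetal alcohol and isocaloric arrays lay below both control diet arrays. Among all named genes tested, 16.8% had both fetal alcohol arrays below both control diet arrays, and 35% had the isocaloric array below both. An unadjusted limma p under 0.05 for fetal alcohol minus control diet was found for 4.76% of them. The log2 difference of fetal alcohol from control diet was -0.54 ± 0.17 for COX3, -0.62 ± 0.24 for COX2 and -0.40 ± 0.17 for COX1, with unadjusted limma p of 0.0144, 0.0314 and 0.044 and limma adjusted p of 0.69, 0.82 and 0.875. A second COX1 probe set gave -0.29. For isocaloric minus control diet the values were -0.90 ± 0.21, -1.13 ± 0.29 and -0.32 ± 0.21. These values moved with the settings. After quantile normalization the fetal alcohol differences were -0.29, -0.41 and -0.07, and the isocaloric difference of COX1 was -0.05. Leaving out a fetal alcohol array gave -0.28 (without the first) or -0.95 (without the second) for COX2. Without the first control diet array COX1 had -0.25 for fetal alcohol and -0.17 for isocaloric. The beta-actin ratio and the meninges and microglia marker sums, given above, were also highest with control diet. So were Neurod1 and Neurod2, but not the other neuronal markers named above. The part of any of these in the values was not tested.

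Other genes of mitochondrial energy metabolism were taken from 6 lists, and none of them passed the adjusted threshold of limma in any comparison. The 19 tested genes of the tricarboxylic acid cycle and pyruvate entry had a median log2 difference of 0.08 for fetal alcohol minus control diet, with 11 positive. The highest were Got1, an aspartate aminotransferase (0.31), and Pdhb of pyruvate dehydrogenase (0.29), and the lowest Idh2, an isocitrate dehydrogenase (-0.23), and Dlat of pyruvate dehydrogenase (-0.16). Of 16 carriers, pores and energy transfer genes 8 were positive, led by Slc25a14, a mitochondrial carrier (0.53), and Ckmt1, mitochondrial creatine kinase (0.44). Ckb, the brain creatine kinase of the cytosol, measured 2856 and 2919 with control diet, 2018 and 2120 with fetal alcohol and 2317 with the isocaloric diet, without overlap. Its log2 difference was -0.48 ± 0.18 (limma adjusted p = 0.788), the lowest of that list, before Hk1, a hexokinase (-0.36). Assembly, import and chaperone genes were positive in 8 of 9 (beside 52.4% of all named genes), with a median of 0.13. The highest were Hspa9, the mitochondrial Hsp70 (0.48 ± 0.48), and Timm17a of the inner membrane translocase (0.33 ± 0.26). Hspa9 measured 80.7 and 208 with control diet, 121 and 286 with fetal alcohol and 207 with the isocaloric diet, with overlapping groups. The lowest of this list were Ndufaf3, itself a member (-0.16 at its brightest probe set, positive at its others), and the chaperonin Hspd1 (0.07).

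The mitochondrial ribosome list had a median of 0.12 over 14 genes, with 10 positive. Mrps14 (0.50) and Mrps6 (0.40) were highest, and Mrpl38 (-0.32) and Mrpl40 (-0.30) lowest. On the single isocaloric array 13 of these 14 had a positive difference from control diet, with a median of 0.27, beside 53.7% positive among all named genes. None of the 14 had an unadjusted limma p under 0.05 in that comparison. Other redox enzymes of mitochondria had a median of 0.07 over 11 genes, from Maoa, a monoamine oxidase (0.60), and Etfa, of the electron transfer flavoprotein (0.54), to Txn2, mitochondrial thioredoxin (-0.56), and its reductase Txnrd2 (-0.35). Of the regulators 3 genes were tested: Atp5if1 again, Ssbp1, a mitochondrial DNA-binding protein (0.37), and Esrra, a nuclear receptor (-0.02). For isocaloric minus control diet Gpd2, the mitochondrial glycerol phosphate dehydrogenase (-0.96), and Sod2, mitochondrial superoxide dismutase (-0.81), were the lowest redox enzymes.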

How the data were processed

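Total RNA of 5 hippocampus samples was measured on 1 array each. The deposited values are linear intensities, 1 per probe set and array. How the authors scaled them is not given in the sources used here. After removal of 59 control probe sets, 8740 were transformed to log2(intensity + 10.6), the offset being the 20th percentile of all values. Those with a mean under the 40th percentile were dropped, leaving 5244. One model held all 5 arrays (limma 3.58.1 under R 4.3.3; lmFit, eBayes with an intensity trend, 2-sided), with Benjamini-Hochberg adjustment over the 5244 and 2 residual and 6.30 prior degrees of freedom. The fit was tested on simulated data. The number of arrays limits the precision.

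Gene symbols came from the platform annotation (7006 probe sets with 1, 308 with several, 1426 with none), and the brightest probe set on average stood for a gene. Given on every array are members with the 3 highest or 3 lowest differences of a comparison, an unadjusted p under 0.05, or the extreme fetal alcohol difference of a complex, and Cyc1. The rest are given by their differences, and other lists by their 2 highest and 2 lowest genes. Gpd2, Sod2 and further single values were added after they were seen. The members and lists were chosen with earlier results of these data known, and their medians and counts carry no test. Other offsets, filters, scalings and fits, and leaving out each array, were tried. Arrays with the same number were not taken as pairs: their deviations correlated at -0.113, and the labels name no shared litter or batch.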

Additional observations from a re-analysis of the deposited data

Results flagged for a closer look

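A further 7 probe sets are annotated with an oxidative phosphorylation gene and at least 1 other symbol, so they entered none of the comparisons. Of these, 3 had both fetal alcohol arrays above both control diet arrays and 0 had both below, beside 17.6% and 16.8% of the 3174 named genes tested. The probe set of Cox7a2 or Cox7a2l2, of complex IV, measured 665 and 926 with control diet, 1275 and 1188 with fetal alcohol and 851 with the isocaloric diet, a log2 difference of fetal alcohol from control diet of 0.64 ± 0.24 (limma adjusted p = 0.788). That of Ndufs5 or its pseudogene, of complex I, measured 410 and 459 with control diet, 625 and 560 with fetal alcohol and 570 with the isocaloric diet, a difference of 0.44 ± 0.23. That of Ndufb4 or Ndufb4l4, of complex I, measured 988 and 1044 with control diet, 1183 and 1142 with fetal alcohol and 875 with the isocaloric diet, a difference of 0.19 ± 0.20.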

How the results depend on the processing

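No alternative fit called a member probe set at the adjusted threshold of limma, but these fits called at most 22 probe sets of the whole array, so this says nothing about how stable the members' differences are. With the replicate number as a replicate block 0 members passed for fetal alcohol minus control diet, among 6 probe sets of all, and 0 with the numbers crossed, among 20, a fit chosen after seeing the data. The median of all members for fetal alcohol minus control diet was positive in every alternative and ran from 0.00757 to 0.156 with 1 array left out (0.117 without the second fetal alcohol array). Over the alternatives, the complex I median ran from 0.03 to 0.22 for this difference, from 0.33 to 0.44 for fetal alcohol minus isocaloric and from -0.25 to -0.17 for isocaloric minus control diet. The complex V median ran from -0.32 to -0.16 and from 0.24 to 0.35 in the last 2 of these. For fetal alcohol minus control diet it was positive in 12 of 13 alternatives and ran from -6.94e-05 (mean over the probe sets of a gene) to 0.19. The complex IV median ran from -0.18 to -0.03 for fetal alcohol minus control diet. For isocaloric minus control diet it turned positive (0.06) with the filter at the 60th percentile, and that of complex III (0.04) with the mean over the probe sets of a gene. With at most 2 arrays a group and no probe set called in the report's fit, the data give no call on any member.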

Other observations

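Cytochrome c, the carrier between complexes III and IV, was read by a probe set shared by Cycs, Cycsl1 and Cycs-ps9. It measured 307 and 220 with control diet, 132 and 314 with fetal alcohol and 341 with the isocaloric diet, so the fetal alcohol values lay on either side of the control diet ones (log2 difference -0.33 ± 0.39). A Cox5a probe set shared with another locus measured 1944 and 1909 with control diet, 1925 and 1812 with fetal alcohol and 1450 with the isocaloric diet, with the isocaloric array lowest. The c-ring subunits of ATP synthase were also read by shared probe sets. That of Atp5mc1 measured 756 and 1187 with control diet, 1266 and 1060 with fetal alcohol and 1188 with the isocaloric diet, and that of Atp5mc2 measured 1100 and 1619 with control diet, 1650 and 1144 with fetal alcohol and 1565 with the isocaloric diet, both with overlapping groups.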
